A study of Ovis aries with 40 samples.

Results

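The genes that license DNA for replication were followed through sheep lung development: *MCM2*, *MCM3*, *MCM4*, *MCM5*, *MCM6*, *MCM7*, *CDC6* and *CDT1*. *MCM10* and *PCNA*, which act at later steps, were followed with them, and all 10 are called licensing genes here. They were picked out by symbol and are 10 of 24478 genes in the count tables. All 10 were found, and all 10 passed the filter on low counts in every fit. From 65 to 120 days of gestation all 10 fell in both regions of WT lung, where 9.38% (proximal) and 8.24% (distal) of all genes did. Over the same days 9 fell in CF distal lung (5.01% of all genes) and 3 in CF proximal lung (0.615%), counts that went as low as 2 and 0 with 1 library left out. Between 120 days and term 0 of 10 passed the test in either WT region, where 24.6% and 25.8% of all genes did, and without term replicate 1 the count was 2 in each. In CF lung 7 fell in the distal region (11.5% of all genes) and 1, *CDC6*, in the proximal region (0.279%), where the count ran from 0 to 7 over the other settings as the share of all genes called ran from 0% to 12.4%. *MCM7* stood apart from the other members and was nearly level between genotypes at term.

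Licensing is the step that makes a chromosome ready to be copied once in each cell cycle. In G1 phase the origin recognition complex, with CDC6 and CDT1, loads the ring of MCM2 to MCM7 onto DNA as an inactive helicase. In S phase kinases and partner proteins turn the ring into the working helicase, MCM10 helps to start it, and PCNA is the sliding clamp of the copying fork. The genes are targets of E2F transcription factors and are low in cells that have left the cell cycle, which makes their transcripts a common measure of how much of a tissue is dividing.

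Bulk RNA was sequenced from proximal and distal lung of American Romney sheep before birth (65, 80, 100 and 120 days of gestation) and at term (day 147 in the labels), with 2 libraries for each of 20 conditions and 40 in all. The WT animals came from ordinary breeding. The CF animals carry CFTR-/- and were made by nuclear transfer from 1 edited fetal fibroblast line, so they are clones, and genotype cannot be told apart from cloning. WT term animals were born naturally and sampled after birth, how the CF term animals were delivered is not given in the sources used here, and at term delivery and genotype cannot be told apart. Proximal and distal libraries came from the same animals, so the regions are not independent of each other. At 100 days the 2 WT libraries of a region bear 1 animal's label, and they were treated as separate samples. Another animal label is shared by WT replicate 2 of 65 days and CF replicate 2 of 100 days, which were placed by their titles. In these tissue samples, fewer dividing cells and less RNA per cell cannot be told apart.

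Depth differed with genotype before term: the WT libraries held 24670355 to 43700012 counts (n = 16) and the CF libraries 85773994 to 103139483 (n = 16), whereas the 8 term libraries held 115937437 to 126749480. The labels call the tissue epithelial, but mesenchymal markers were abundant, with *COL1A1* at 498 to 8187 CPM (counts scaled to an equal library total) over the 40 libraries. CF proximal replicate 2 at 120 days differed most from its partner. The root mean square difference in log2 CPM over all genes was 1.78 in that pair and 0.55 to 1.17 in the other 19. The summed level of 9 epithelial markers was 19125 CPM in replicate 2 and 5243 CPM in replicate 1. With both, 1 member fell from 120 days to term in CF proximal lung, 6 were lower in CF than in WT at term and 4 had a lower change in CF, where 0.356%, 6.09% and 1.78% of all genes were called either way. Without replicate 2 the counts were 1, 7 and 4, and the shares of all genes 1.03%, 12.2% and 4.79%. Without replicate 1 the counts were 5, 7 and 5, and the shares 6.49%, 12% and 18.4%, so calls rose over all genes as well.

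Levels throughout are CPM after TMM normalization, which corrects for the make-up of each library. At 65 and 80 days the ring subunit *MCM7* ran from 173 to 271 CPM, with a median of 210 over 16 libraries. The other ring subunits had medians of 117 (*MCM2*), 128 (*MCM3*), 158 (*MCM4*), 79.9 (*MCM5*) and 154 CPM (*MCM6*). The loading factors had medians of 24.9 CPM (*CDC6*) and 28.2 CPM (*CDT1*). *MCM10* had a median of 25.2 CPM and *PCNA* of 172 CPM. Lower counts per gene carry more counting error, and the least counted member in any library was *CDC6*, with 80 counts in CF proximal replicate 2 at term. Of genes with 1 to 20 counts, 69.2% to 85.8% had an even count in each library. Both mates of a read pair may therefore have been counted, and counts may exceed the fragments sequenced.

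Levels of different genes can be compared only per length of transcript. In WT proximal lung at 65 days *PCNA* was first at 96.2 ± 0.24 CPM per kb (SD, n = 2), followed by *MCM7* at 86.6 ± 1.6 and *MCM4* at 59.4 ± 1.5 CPM per kb. *MCM2* and *MCM6* overlapped there at 39.8 ± 1.3 and 39.4 ± 2.9 CPM per kb, and *MCM10* was last at 9 ± 0.44 CPM per kb. In CF proximal lung at 65 days the first 2 places were exchanged, with *MCM7* at 78.5 ± 9.1 and *PCNA* at 55.1 ± 7.8 CPM per kb. *PCNA* overlapped *MCM4* there, at 54.7 ± 3.9 CPM per kb. At term *MCM7* was first and *PCNA* second in all 4 combinations of genotype and region. *CDC6* was last in each of them, at 1.85 ± 0.63 CPM per kb in WT and 0.456 ± 0.16 CPM per kb in CF proximal lung.

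**Figure D1:**
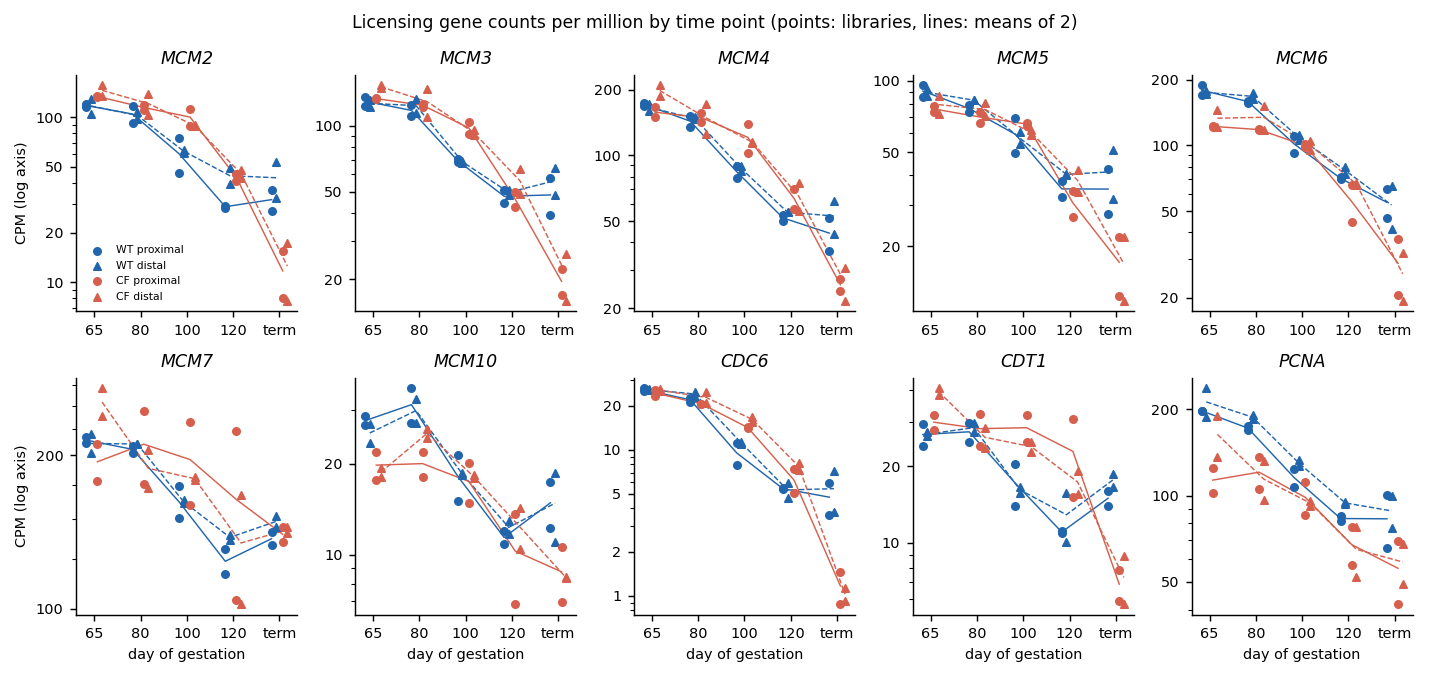
CPM of each licensing gene (log axis) against time point, with 1 point for each of the 40 libraries and lines through the means of 2 libraries. Blue is WT and red CF, circles are proximal and triangles distal. *CDC6* in the 4 CF term libraries sits between 0.882 and 1.46 CPM, below every other library, and *MCM7* shows no such gap.

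The first comparison asked when the licensing genes decline. From 65 to 120 days all 10 members fell in WT proximal lung, where 9.38% of all genes tested were called lower, and all 10 fell in WT distal lung, where 8.24% were. In CF distal lung 9 fell, against 5.01% of all genes, and in CF proximal lung 3 fell, against 0.615%. The CF distal count was 2 without replicate 1 of 120 days or replicate 2 of 65 days, 4 without replicate 1 of 65 days, and 6 to 9 without any other library. The share of all genes called either way, 12.1% with every library, was 5.44%, 3.47% and 6.17% in the first 3 of these. The CF proximal count was 0 without any 1 library of 65, 80 or 100 days, 1 without replicate 2 of 120 days and 7 without replicate 1 of 120 days. The share there was 1.66% with every library, 0.00494% to 0.522% where the count was 0, and then 2.11% and 19.2%. In WT the count was 10 in proximal and 8 to 10 in distal lung with each library left out. The median log2 fold change of the 10 was -1.37 and -1.19 in WT and -1.18 and -1.23 in CF (proximal and distal), with medians over all genes tested between -0.03 and 0.04. Called here means an adjusted p of 0.05 or less in edgeR's quasi-likelihood test, adjusted over all genes. At the limits of the study (adjusted p of 0.001 or less and log2 fold change of at least 0.58), 5 and 2 members fell in WT (1.35% and 0.58% of all genes) and 0 in CF (0% and 0.0871%).

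The loading ATPase *CDC6* had the steepest fall. In WT proximal lung it went from 26.4 and 25.5 CPM at 65 days to 5.38 and 5.47 CPM at 120 days. That is a log2 fold change of -2.27 ± 0.26 (SE, edgeR adjusted p = 5.07e-04), and both later libraries were far below both earlier ones. In WT distal lung the log2 fold change was -2.29 ± 0.29 (edgeR adjusted p = 0.00133). CF lung started at overlapping levels, with 25.8 and 23.3 CPM in the proximal and 25.3 and 26.0 CPM in the distal libraries at 65 days. By 120 days it had reached 7.39 and 5.03 CPM in proximal and 7.34 and 8.10 CPM in distal CF lung. These were log2 fold changes of -1.94 ± 0.37 and -1.70 ± 0.23 (edgeR adjusted p = 0.0463 and 0.00277).

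Among the ring subunits, the steepest fall in WT proximal lung was that of *MCM2*, which went from 115 and 120 CPM at 65 days to 29.1 and 28.3 CPM at 120 days (log2 fold change -2.04 ± 0.24, edgeR adjusted p = 5.10e-04). *MCM7* fell least in both WT time courses. In WT proximal lung it went from 212 and 217 to 117 and 131 CPM (log2 fold change -0.80 ± 0.11, edgeR adjusted p = 0.00134). *MCM7* did not pass in CF proximal lung: it was 210 and 178 CPM at 65 days, and 104 and 224 CPM at 120 days. The 2 libraries at 120 days lay on either side of the earlier ones, and the log2 fold change was -0.20 ± 0.39 (edgeR adjusted p = 0.855).

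Between neighbouring time points few members passed. From 65 to 80 days no member did in any of the 4 time courses, where 0.011% of all genes passed in WT proximal, 0.0164% in WT distal and 0% in CF lung. An unadjusted p of 0.05 or less was reached by 0 members there, except for 1 in CF distal lung. The estimates in CF distal lung were below 0 for 8 members, with log2 fold changes of -0.57 for *CDT1*, -0.50 for *PCNA* and -0.41 for *MCM7*. From 80 to 100 days *CDC6* and *MCM4* fell in WT proximal lung (0.665% of all genes fell), with log2 fold changes of -1.22 ± 0.26 and -0.78 ± 0.16 (edgeR adjusted p = 0.0490 and 0.0446). *MCM3* fell in WT distal lung over the same interval (0.252% of all genes), with a log2 fold change of -0.85 ± 0.15 (edgeR adjusted p = 0.0355). Both WT libraries of 100 days bear 1 animal's label, and with them summed to 1 sample none of these 3 calls was made. In CF lung 0 members and 0% of genes passed there by edgeR, and 0 and 1 member had an unadjusted p of 0.05 or less. From 100 to 120 days 0 of 10 passed in any time course by edgeR, where 2.67%, 2.49%, 0.0203% and 0.928% of all genes did (WT and CF, proximal then distal). Of the members 10 (WT proximal), 7 (WT distal), 6 (CF proximal) and 5 (CF distal) had an unadjusted p of 0.05 or less there, and all 10 estimates were below 0 in each. Over the 12 comparisons DESeq2 made 24 calls of members, where it called 3.27% of all genes tested, and edgeR made 3, where it called 0.734%. In the test over all 5 time points, all 10 members differed in both WT regions, with 40.8% and 40.4% of all genes. In CF distal lung 9 differed, with 33.9% of all genes, all but *MCM7*. The count was 6 in CF proximal lung, with 5.36% of all genes, and *MCM7*, *MCM10*, *CDT1* and *PCNA* were not called. It was 4 to 7 with each library left out, where the share of all genes is not given here.

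From 65 days to term the whole course can be read at once. All 10 members fell in WT proximal (21.5% of all genes fell) and WT distal lung (21%), and in CF distal lung (15%), with median log2 fold changes of -1.41, -1.25 and -2.37. In CF proximal lung 7 fell (5.83% of all genes), all but *MCM7*, *MCM10* and *PCNA*, with a median of -2.12. The count was 4 without either replicate of 65 days, a drop not set against the share of all genes in those fits. *CDC6* was 24.5-fold lower at term than at 65 days in CF distal and 20.8-fold lower in CF proximal lung (edgeR adjusted p = 1.40e-05 and 0.00116).

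The next question was what happens at the end of gestation. *CDC6* in WT proximal lung had 5.38 and 5.47 CPM at 120 days and 5.89 and 3.60 CPM at term, and in WT distal lung 4.71 and 5.92 CPM, then 7.12 and 3.74 CPM. The WT ranges overlapped. In CF proximal lung *CDC6* went from 7.39 and 5.03 to 1.46 and 0.882 CPM, and in CF distal lung from 7.34 and 8.10 to 0.928 and 1.13 CPM. All 4 CF term libraries were below all 36 others. The log2 fold change from 120 days to term was -2.44 ± 0.38 in CF proximal (edgeR adjusted p = 0.0488) and -2.92 ± 0.24 in CF distal lung (edgeR adjusted p = 5.66e-04). In WT it was -0.20 ± 0.25 in proximal and 0.00 ± 0.28 in distal lung (edgeR adjusted p = 0.607 and 0.993).

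*CDT1*, the partner of CDC6 that brings in the MCM ring, moved in opposite directions by its estimates. WT proximal libraries had 11.1 and 11 CPM at 120 days and 16.1 and 13.9 CPM at term, and WT distal libraries 10.1 and 15.8, then 18.7 and 16.6 CPM. Both WT changes missed the threshold, at log2 fold changes of 0.44 ± 0.21 and 0.43 ± 0.21 (edgeR adjusted p = 0.166 and 0.154). In CF distal lung *CDT1* fell from 15.6 and 19.2 to 8.86 and 5.76 CPM, a log2 fold change of -1.25 ± 0.25 (edgeR adjusted p = 0.0125). CF proximal *CDT1* went from 15.2 and 30.7 to 7.86 and 5.91 CPM. Both term libraries were below both earlier ones, but the pair at 120 days was wide and the log2 fold change of -1.77 ± 0.40 was not called (edgeR adjusted p = 0.118).

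Of the 6 ring subunits 5 fell at term in CF distal lung. *MCM2* went from 42.8 and 48.1 to 17.4 and 7.77 CPM (log2 fold change -1.86 ± 0.33, edgeR adjusted p = 0.00864). *MCM3* went from 48.6 and 63.8 to 26.2 and 16 CPM (log2 fold change -1.42 ± 0.26, edgeR adjusted p = 0.00902). In both genes the term libraries were below the earlier ones with no overlap. *MCM4*, *MCM5* and *MCM6* had log2 fold changes of -1.32, -1.17 and -1.37 (edgeR adjusted p = 0.00885, 0.0194 and 0.00992). In CF proximal lung *MCM2* went from 45.0 and 41.3 to 15.4 and 8.04 CPM, and the log2 fold change of -1.91 ± 0.33 missed the threshold (edgeR adjusted p = 0.0609).

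In WT lung the same subunits showed no common direction at term. *MCM2* was at 29.1 and 28.3 CPM at 120 days and 36.1 and 27.2 CPM at term in WT proximal lung, and at 39.3 and 49.1, then 53.7 and 32.2 CPM in WT distal lung. The lowest adjusted p was that of *MCM6*, with log2 fold changes of -0.37 ± 0.14 in proximal and -0.55 ± 0.18 in distal lung (edgeR adjusted p = 0.0936 and 0.0527). Over the 10 members, 5 estimates were above 0 in WT proximal and 6 in WT distal lung.

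*MCM7* did not follow the other subunits. CF distal libraries had 102 and 167 CPM at 120 days and 145 and 141 CPM at term, and CF proximal libraries 104 and 224, then 135 and 145 CPM. The term values lay between the 2 earlier ones in both regions. The log2 fold change was 0.09, with a 95% interval of -0.42 to 0.60, in CF distal lung and -0.26, with an interval of -1.15 to 0.62, in CF proximal lung. *PCNA* likewise did not pass, at 52.0 and 77.8, then 68.0 and 49.2 CPM in CF distal lung (log2 fold change -0.15, interval -0.75 to 0.46). *MCM10* went from 14.3 and 10.4 to 8.34 and 8.43 CPM in CF distal lung, with a log2 fold change of -0.57 ± 0.24 that missed the threshold (edgeR adjusted p = 0.102).

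In all, 7 of 10 members fell from 120 days to term in CF distal lung, where 11.5% of all genes fell, and 1 of 10 fell in CF proximal lung, where 0.279% did. In WT lung 0 of 10 passed in either region by edgeR, against 24.6% and 25.8% of all genes called either way. 1 member in each WT region had an unadjusted p of 0.05 or less, *MCM6*. DESeq2 called 0 in proximal and 1 in distal WT lung, where its own share of all genes is not given here. The median log2 fold change of the members was 0.00 and 0.01 in WT, and -1.12 and -1.29 in CF (proximal and distal). Over all genes tested it was 0.06 and 0.04 in WT, and -0.12 and -0.06 in CF. The CF proximal count of 1, with 0.356% of all genes called either way, was 5 by DESeq2 (7.23% of all genes) and 7 with all 40 libraries in 1 fit (12.4%). It was 0 with thinned counts (0.377%) and with library totals alone (0.244%). It was also 0 with a replicate block and without any 1 library of 65, 80 or 100 days, but there 0% of all genes were called, and without term replicate 2 the call was of 1 gene in all (0.00493%). In WT lung 2 members fell without term replicate 1, where 18.2% (proximal) and 35.8% (distal) of all genes were called.

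**Figure D2:**
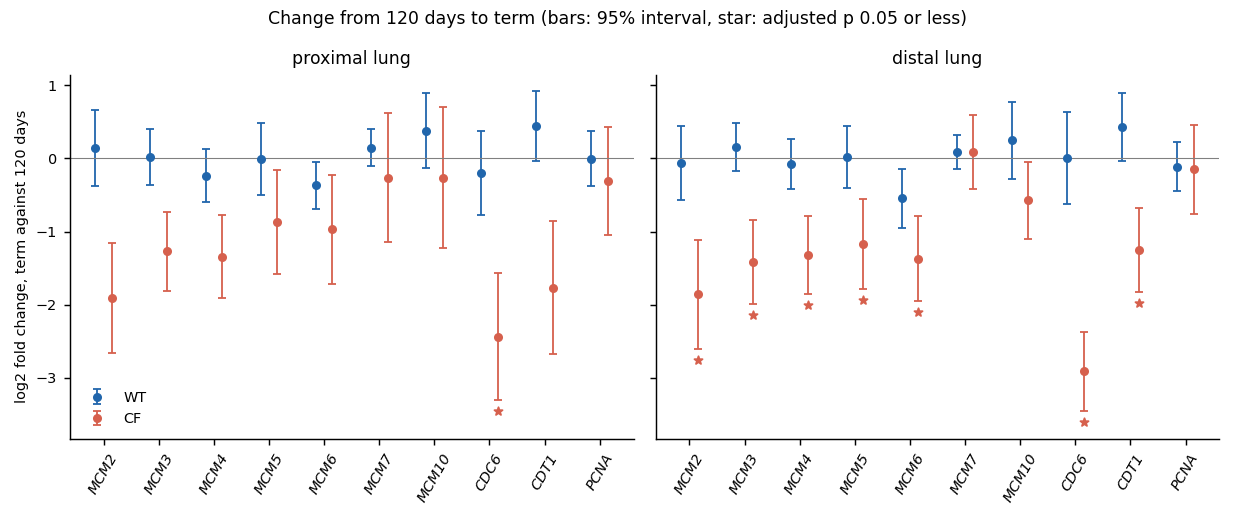
Log2 fold change from 120 days to term for each member (points) with its 95% interval (bars), in proximal (left) and distal lung (right). Blue is WT, red is CF, and a star marks an adjusted p of 0.05 or less: 1 in CF proximal, 7 in CF distal and 0 in WT lung.

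A call in CF and none in WT does not show a difference, so the change in CF minus the change in WT was tested itself. In distal lung the difference passed for 6 members, where 5.1% of all genes had a lower change in CF. They were *CDC6* (log2 difference -2.92 ± 0.36, edgeR adjusted p = 5.93e-04), *MCM2* (-1.79 ± 0.43, 0.0199), *CDT1* (-1.68 ± 0.33, 0.00724), *MCM3* (-1.57 ± 0.31, 0.00727), *MCM4* (-1.24 ± 0.29, 0.0192) and *MCM5* (-1.19 ± 0.35, 0.0470). In proximal lung 4 passed, where 1.19% of all genes did: *CDC6* (-2.21 ± 0.45, 0.0245), *CDT1* (-2.18 ± 0.46, 0.0292), *MCM2* (-2.02 ± 0.41, 0.0253) and *MCM3* (-1.26 ± 0.29, 0.0412). For *MCM7* the 95% interval of the difference in distal lung was -0.56 to 0.56. In proximal lung *MCM7* was not called either, but all 10 estimates there were at or below -0.27. Before term, 0 of 60 such tests passed by edgeR or by DESeq2 and 0 had an unadjusted p of 0.05 or less, where 0% or 0.00996% of all genes passed. The proximal count fell from 4 to 0 without WT term replicate 1, without CF term replicate 2, or without either WT replicate at 120 days, and to 2 without either CF replicate at 65 days. Calls over all genes either way fell too, from 1.78% to between 0.263% and 0.845% in the first 4 of these and to 0.957% and 0.95% in the last 2. The distal count fell from 6 to 3 without WT term replicate 1 or WT replicate 1 at 120 days, where the share of all genes went from 9.31% to 5.05% and 3.75%. The *CDC6* difference in distal lung passed with each of the 20 libraries left out, with a largest adjusted p of 0.00755.

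At term itself, CF was lower than WT for 8 members in distal lung, where 7.57% of all genes were lower, and for 6 in proximal lung, where 3.49% were. *CDC6* had the largest difference, with 7.12 and 3.74 CPM in WT against 0.928 and 1.13 CPM in CF distal lung, and 5.89 and 3.60 against 1.46 and 0.882 CPM in proximal lung. The groups did not overlap. These were 5.17-fold and 4.05-fold lower levels in CF, with log2 fold changes of -2.37 ± 0.27 and -2.02 ± 0.32 (edgeR adjusted p = 1.29e-04 and 0.00313).

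*MCM2* was at 53.7 and 32.2 CPM in WT against 17.4 and 7.77 CPM in CF distal lung, a log2 fold change of -1.74 ± 0.31 (edgeR adjusted p = 0.00234). *MCM3* was at 64.1 and 48.4 against 26.2 and 16 CPM in distal lung (-1.38 ± 0.22, adjusted p = 0.00116) and at 57.7 and 39.1 against 22.2 and 17.0 CPM in proximal lung (-1.30 ± 0.20, adjusted p = 0.00273). For both subunits every WT library was above every CF library of the region. *MCM4*, *MCM5* and *MCM6* were also lower in both regions, with log2 fold changes from -1.26 to -0.78. *CDT1* was lower in distal lung (18.7 and 16.6 against 8.86 and 5.76 CPM, log2 fold change -1.25 ± 0.23, edgeR adjusted p = 0.00329), and in proximal lung it did not pass (-1.12 ± 0.32, adjusted p = 0.0571). *MCM10* was lower in distal lung, at 18.6 and 11 against 8.34 and 8.43 CPM (-0.79 ± 0.23, adjusted p = 0.0354).

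*MCM7* and *PCNA* were not called at term in either region. *MCM7* had 141 and 133 CPM in WT and 135 and 145 CPM in CF proximal lung, and 145 and 152 against 145 and 141 CPM in distal lung. Its log2 fold change was 0.03, with a 95% interval of -0.60 to 0.66, in proximal and -0.03, with an interval of -0.42 to 0.36, in distal lung. *PCNA* was at 100.1 and 65.8 CPM in WT against 69.5 and 41.9 CPM in CF proximal lung, where the groups overlapped. It was at 99.8 and 77.0 against 68.0 and 49.2 CPM in distal lung, where they did not, but the log2 fold change of -0.56 ± 0.24 missed the threshold (edgeR adjusted p = 0.121).

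The 2 animals of a genotype differed at term. In WT, replicate 1 was above replicate 2 for 10 members in proximal and 9 in distal lung, by a median ratio of 1.42 and 1.49. In CF, replicate 1 was above replicate 2 for 8 members in each region, by a median ratio of 1.49 and 1.47. These were not the same 8: the ratio of replicate 1 to 2 was 1.65 in proximal and 0.825 in distal lung for *CDC6*, and 0.935 and 1.03 for *MCM7*. The count of members lower in CF at term was 2 in proximal and 4 in distal lung without WT replicate 1, and 2 and 5 without CF replicate 2. Leaving out any proximal library of 65 days, either CF replicate or WT replicate 1 at 80 days, or either WT replicate at 120 days gave 3 in proximal lung. The shares of all genes called in these fits are not given here, so the counts alone do not show a loss particular to the members.

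From 65 to 120 days no member differed between CF and WT at any single day in either region (0 of 80 tests by edgeR, 12 with an unadjusted p of 0.05 or less, 2 called by DESeq2), where 0.167%, 0.0885%, 0.383% and 1.35% of all genes were called in proximal and 5.23%, 5.92%, 5.3% and 4.38% in distal lung at the 4 days in order. Averaged over the 4 days, 2 members differed in each region, with 20.6% of all genes called in proximal and 32.3% in distal lung; a share of 2 in 10 is at or below that background. *PCNA* was lower in CF, at 52.0 to 190 CPM (median 99.1, n = 16) against 81.6 to 237 CPM in WT (median 151, n = 16). Its log2 fold change was -0.46 ± 0.13 in proximal and -0.53 ± 0.12 in distal lung (edgeR adjusted p = 0.0260 and 0.00368). *CDT1* was higher in CF, at 15.2 to 40.6 CPM (median 26.5) against 10.1 to 29.7 CPM in WT (median 22.3), with log2 fold changes of 0.50 ± 0.16 and 0.36 ± 0.11 (edgeR adjusted p = 0.0423 and 0.0284). The ranges overlapped for both genes, and depth differed between the genotypes at each of these days. These calls were not stable. Leaving out single libraries gave counts from 0 to 4 in proximal lung and, for distal lung, from 1 to 3. In those fits 13.8% to 34.9% of all genes were called in proximal lung and 25.4% to 34.9% in distal lung. The proximal count was 0 without CF replicate 2 of 65 days, either WT replicate of 65 days, WT replicate 1 of 100 days or WT replicate 2 of 120 days. With the WT libraries of 100 days summed, which bear 1 animal's label, the count was 1 in each region. It was 1 in proximal and 2 in distal lung with counts thinned to equal depth or with a replicate block. For the summed, thinned and blocked fits the shares of all genes are not given here.

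**Figure D3:**
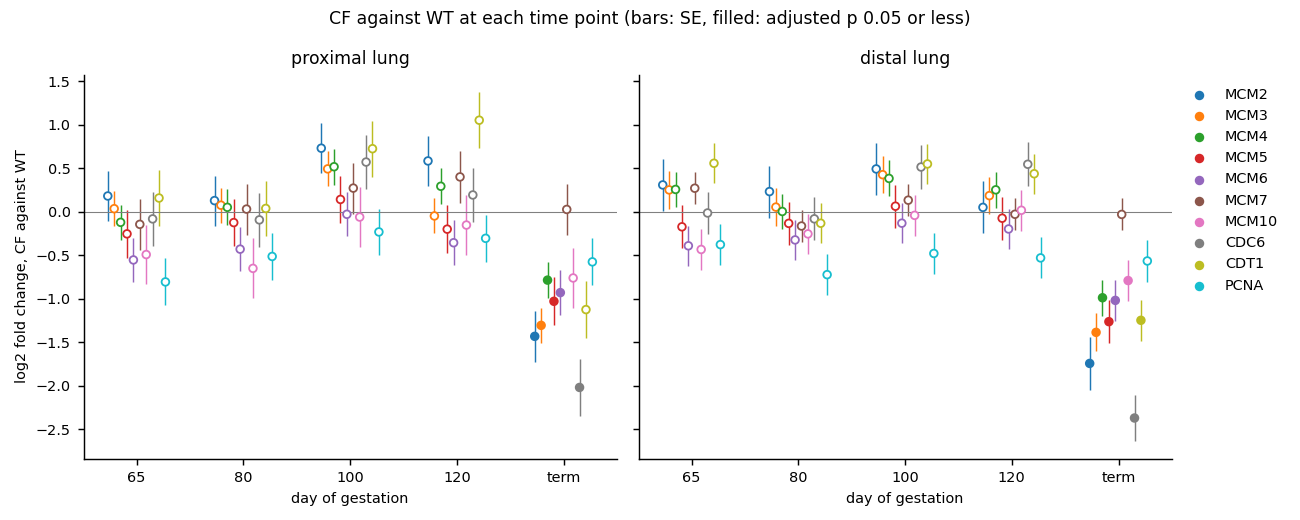
Log2 fold change of CF against WT for each member at each time point (points) with its SE (bars), in proximal (left) and distal lung (right). Filled points passed at an adjusted p of 0.05 or less: none from 65 to 120 days, 6 at term in proximal and 8 at term in distal lung, while *MCM7* stays at 0.03 and -0.03.

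The 6 ring subunits act in equal numbers in the helicase, so their transcript shares were compared per kb. At 65 and 80 days *MCM7* made up 26.7% to 33.9% of the summed CPM per kb of *MCM2* to *MCM7* (median 29.2%, n = 16). Its share was 38.2% to 42.8% in WT at 120 days and 37.8% to 48.8% in WT at term. In CF it was 34.4% to 54.4% at 120 days and 58.2% to 69.8% at term. The CF term libraries were above all others, and the highest other value was in CF proximal replicate 2 at 120 days. *MCM2* moved the other way, from 12% to 16.5% at 65 and 80 days to 8.37% to 11.8% in WT and 3.22% to 5.90% in CF at term. The summed level of the 6 subunits was 81.5 to 99.7 CPM per kb in CF and 110 to 155 CPM per kb in WT at term, against 240 to 339 CPM per kb at 65 and 80 days.

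**Figure D4:**
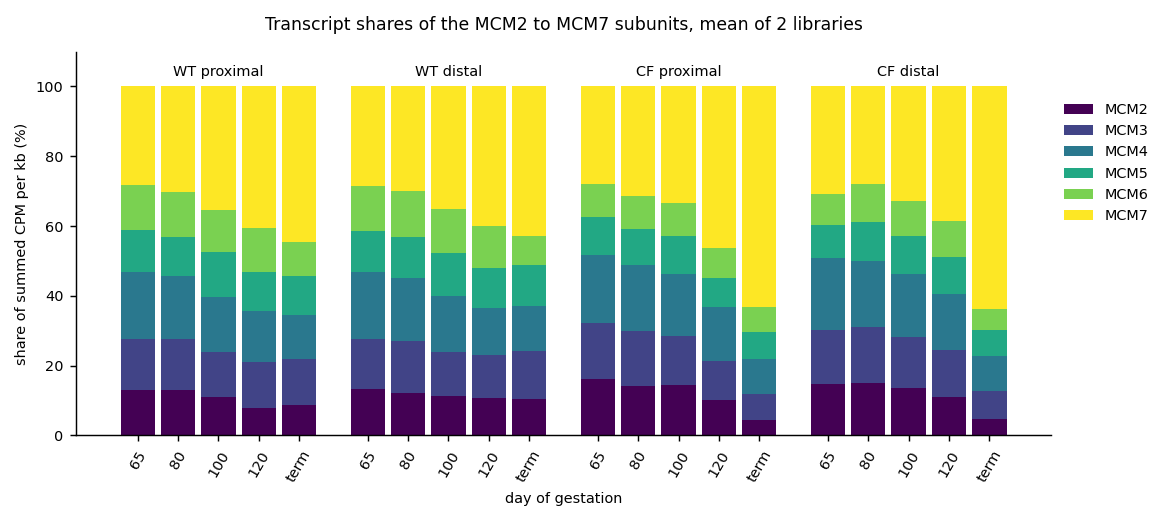
Share of each ring subunit in the summed CPM per kb of *MCM2* to *MCM7* (percent, mean CPM per kb of 2 libraries), by genotype, region and time point. The share of *MCM7*, at the top of each bar, is largest in the CF term bars, where single libraries ran from 58.2% to 69.8%.

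Some ratios of CPM also separated the genotypes at 65 and 80 days. The ratio of *MCM6* to *MCM3* was 1.29 to 1.46 in WT and 0.792 to 1.07 in CF at 65 and 80 days (n = 8 each), with no overlap. At 120 days it was 1.37 to 1.65 in WT and 0.893 to 1.54 in CF, which overlapped, and at term 0.859 to 1.19 in WT against 1.21 to 1.67 in CF. The ratio of *PCNA* to *MCM2* was 1.45 to 1.89 in WT and 0.773 to 1.41 in CF at 65 and 80 days. At term it was 1.86 to 2.77 in WT and 3.92 to 6.34 in CF. For both ratios the genotype with the higher values at 65 and 80 days had the lower ones at term. These ratios were picked after their values were seen and carry no test. The ratio of *CDT1* to *CDC6* was 0.946 to 1.6 at 65 and 80 days, 2.63 to 4.45 in WT at term and 5.12 to 9.54 in CF at term.

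Between proximal and distal lung of the same animals no member passed. Averaged over the 5 time points, 0 of 10 passed by edgeR or DESeq2 in WT or in CF, where 0% and 0.00497% of all genes passed. 2 members in WT and 0 in CF had an unadjusted p of 0.05 or less. In WT the log2 fold changes of proximal against distal lung ran from -0.21 to 0.02, and the widest interval was that of *MCM2*, from -0.41 to -0.01. In CF they ran from -0.13 to 0.04.

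Over the 40 libraries the members moved together. Pearson's r of log2 CPM between 2 members had a median of 0.87 over 45 pairs, from 0.52 for *MCM7* with *MCM10* to 0.98 for *MCM3* with *MCM4*. With the mean of the other 9 members, r was 0.98 for *MCM4* and *MCM3*, 0.97 for *CDC6*, *MCM5* and *MCM2*, 0.95 for *MCM6*, 0.89 for *CDT1*, 0.86 for *PCNA*, 0.82 for *MCM10* and 0.73 for *MCM7*. The libraries share animals and time points, so these values describe the set. Outside the 10, the gene with the closest pattern was *TYMS*, thymidylate synthase, at r = 0.99. It was followed by *CHAF1A*, *LMNB1*, *FEN1*, *NCAPG2*, *KIAA0101*, *PHGDH*, *TRIP13*, *CDCA8* and *TRAIP*, the last at r = 0.97.

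The neighbouring steps of replication were read from lists of genes. Their counts from 120 days to term stand against 11.1% of all genes lower in WT proximal, 12.3% in WT distal, 11.5% in CF distal and 0.279% in CF proximal lung. Higher were 13.5% of all genes in each WT region and 11.5% in CF distal lung. The origin recognition complex, which takes part in loading the ring onto DNA, belongs to a list of 10 genes of origin recognition and licensing control. In CF distal lung 1 of the 10 fell at term, a share no higher than that of all genes: *ORC1* (log2 fold change -1.09 ± 0.26, edgeR adjusted p = 0.0201), and the median of the list was -0.02. At term 1 of the 10 was lower and 1 higher in CF than in WT in each region, near the 7.57% lower and 7.65% higher of all genes in distal lung (3.49% and 2.6% in proximal lung). *ORC1* was lower, with 2.30 and 2.71 CPM against 3.85 and 6.43 CPM in distal lung (-1.01 ± 0.25, adjusted p = 0.0150) and a log2 fold change of -1.53 ± 0.29 in proximal lung (adjusted p = 0.00769). *ORC4* was higher in CF, at 79.7 and 111 CPM against 43.1 and 44.2 CPM in distal lung (1.16 ± 0.18, adjusted p = 8.68e-04) and by 0.85 ± 0.18 in proximal lung (adjusted p = 0.0125). The other 8 genes of the list were not called at term in either region.

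Of 16 genes that activate the loaded helicase, 11 fell and 0 rose in CF distal lung, against 11.5% of all genes lower, and the median over the list was -0.83. *CLSPN*, the checkpoint mediator claspin, went from 12.8 to 13.6 CPM at 120 days to 1.13 to 1.33 CPM at term (-3.44 ± 0.23, edgeR adjusted p = 2.62e-04). *RECQL4*, *TICRR* and *GINS1* had log2 fold changes of -3.10, -3.01 and -2.47. Of 6 genes of nucleotide supply 3 fell, *RRM2*, *TK1* and *TYMS*. *RRM2*, the small subunit of ribonucleotide reductase, went from 24.9 and 26.3 to 4.18 and 4.39 CPM. Of 29 fork genes 8 fell and 2 rose (median -0.16), and of 18 mitotic genes 17 fell (median -2.35). In WT distal lung 1 of 16, 1 of 6, 1 of 29 and 0 of 18 fell over the same interval, and 0, 0, 4 and 2 rose. In WT proximal lung 2, 1, 2 and 0 fell, and 0, 0, 3 and 4 rose. The mitotic genes that rose in WT were *BUB1* and *CDC20* in both regions, and *BIRC5* and *CCNB1* in proximal lung, with log2 fold changes from 0.44 to 0.82. In distal lung 2 of 18 is a share below the 13.5% of all genes that rose.

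In CF proximal lung the counts were smaller: 12 of 18 mitotic genes and 1 of 6 nucleotide supply genes, *RRM2*, fell, against 0.279% of all genes, and 0 of 16 helicase activation and 0 of 29 fork genes passed by edgeR. The medians of those lists were -2.88, -1.26, -0.98 and -0.39. For CF against WT at term, 18 of 18 mitotic genes were lower in proximal and 17 of 18 in distal lung, against 3.49% and 7.57% of all genes, with medians of -2.67 and -2.37. The licensing members had medians of -0.98 and -1.13 in the same comparisons, and all genes of -0.03 and 0.00.

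**Figure D5:**
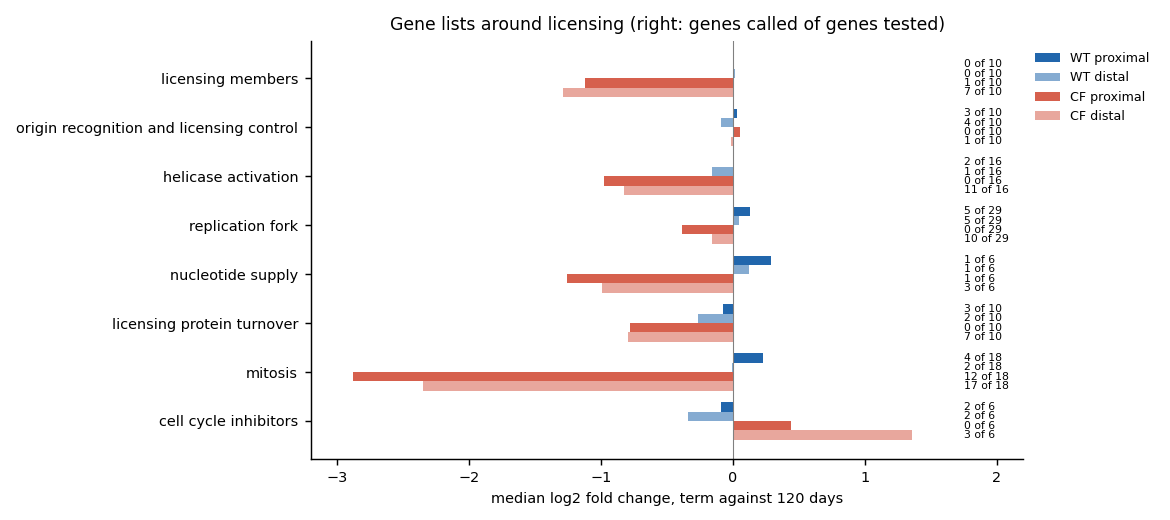
Median log2 fold change from 120 days to term (bars) for the licensing members and 7 lists of related genes, by genotype and region. At the right of each bar is how many genes of the list were called of those tested, which for mitosis is 4 and 2 of 18 in WT, all higher at term, and 12 and 17 of 18 in CF proximal and distal lung, all lower.

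Among genes that control the turnover of licensing proteins, 10 had a row in the tables. At term 1 was higher and 4 were lower in CF in proximal lung, against 2.6% and 3.49% of all genes. In distal lung 2 were higher and 5 lower, against 7.65% and 7.57%. *DTL* encodes the adaptor that marks CDT1 for destruction on PCNA during S phase. *DTL* was higher in CF at term in both regions, with 52.1 and 67.9 CPM against 12.1 and 22 CPM in proximal lung (log2 fold change 1.81 ± 0.27, edgeR adjusted p = 0.00184). In distal lung it was at 36.5 and 85.9 against 9.89 and 20.6 CPM (2.03 ± 0.34, adjusted p = 0.00167). The CF libraries were above the WT libraries without overlap. *CCNA2*, *CCNE1*, *CCNE2* and *FBXO5*, which drive or time S phase, were lower in CF in both regions, with *CCNA2* at -2.19 ± 0.31 in proximal and -1.98 ± 0.25 in distal lung (adjusted p = 0.00135 and 2.79e-04). In distal lung the kinase *CDK2* was also higher (0.66 ± 0.17, adjusted p = 0.0190) and the ligase scaffold *CUL4A* lower (-0.69 ± 0.14, adjusted p = 0.00555). *SKP2*, *CUL4B* and *DDB1* were not called in either region, and *CDK2* and *CUL4A* were not called in proximal lung. Of 6 inhibitors of cyclin kinases, 1 was higher in CF at term in proximal and 2 in distal lung, against 2.6% and 7.65% of all genes, and 0 were lower. *CDKN1C* was higher in both regions, at 88.2 and 206 against 21.1 and 22.8 CPM in proximal lung (2.75 ± 0.61, adjusted p = 0.0182) and 100.2 and 305 against 30.2 and 30.7 CPM in distal lung. *CDKN1B* was higher in distal lung (1.32 ± 0.30, adjusted p = 0.01).

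Markers of other cells moved with both comparisons over time. From 65 to 120 days the summed level of 9 epithelial markers went from 651 to 1058 CPM at 65 days to 2941 to 19125 CPM at 120 days over both genotypes. The surfactant genes *SFTPC* and *SFTPB* carried that sum, reaching 22822 and 5127 CPM over the 40 libraries, while no other of the 9 passed 728 CPM. Of the 9, 3 rose in WT proximal, 3 in WT distal (1 fell), 3 in CF distal and 2 in CF proximal lung, both surfactant genes in each, where 10.7%, 9.92%, 7.1% and 1.05% of all genes rose. The sum of 3 cartilage markers went from 350 to 592 CPM to 9.5 to 105 CPM, with 2 called lower in WT proximal, WT distal and CF distal lung and 1 in CF proximal lung, where 9.38%, 8.24%, 5.01% and 0.615% of all genes fell. That of 4 endothelial markers went from 697 to 892 CPM to 1121 to 1933 CPM. Of the 4 endothelial markers 4 rose in WT proximal, WT distal and CF distal lung and 1 in CF proximal lung. Erythroid markers summed to 13.4 to 47.4 CPM at 65 days, with 4 of 7 higher at 120 days in WT proximal, 2 in WT distal and 0 in CF lung, against the shares of all genes that rose given above. At term, 6 immune markers summed to between 361 and 769 CPM in WT and between 90.2 and 202 CPM in CF, against 49.7 to 69.2 in both genotypes at 120 days. Of the 6, 3 were lower in CF at term in proximal and 2 in distal lung, against 3.49% and 7.57% of all genes. *MARCO*, the scavenger receptor of alveolar macrophages, was at 0 in 20 of the 40 libraries and reached 494 CPM. No other of the 6 rose above 138.4 CPM, so the immune sum can rest largely on this 1 gene. In both genotypes the term replicate with the higher immune sum, replicate 2, was the one with lower levels of most licensing genes. The summed CPM of 7 erythroid markers was 75.7 to 137 in WT and 28.6 to 58.8 in CF at 120 days, and 1.22 to 3.73 and 4.68 to 10.3 at term. The sums of 9 epithelial markers (13092 to 20982 in WT and 6328 to 27300 in CF) and of 6 mesenchymal markers (3502 to 6631 and 2529 to 8509) overlapped between genotypes at term, as did those of 4 endothelial markers. At 120 days the mesenchymal sum had been higher, between 8955 and 12716 CPM in WT and between 9321 and 14049 CPM in CF. In CF distal lung it went from 13989 and 14049 to 7580 and 2529 CPM. Of the 6 mesenchymal markers 4 fell in WT proximal, 3 in WT distal, 1 in CF proximal and 3 in CF distal lung, against 11.1%, 12.3%, 0.279% and 11.5% of all genes. At term the sum was lower in replicate 2 than in replicate 1 in both regions of both genotypes. The part of these cells in the licensing results was not tested.

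By the coordinates in the count files, on Oar_v4.0, each member lies at 1 place and no exon of it overlaps another gene model. *MCM7* is on chromosome 24 from 36238027 to 36245406 (plus strand) and *CDC6* on chromosome 11 from 40065420 to 40076488 (plus strand). *MCM2* is on chromosome 19 from 59813990 to 59833091 and *MCM3* on chromosome 20 from 24413072 to 24429081, both on the minus strand. *CDT1* is on chromosome 14 from 13478521 to 13490937 (plus strand). *MCM10* and *PCNA* are both on chromosome 13, at 26865076 and 46548971, and *MCM4*, *MCM5* and *MCM6* are on chromosomes 9, 3 and 2.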

How the data were processed

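RNA from 40 libraries was used. The authors mapped paired reads on Oar_v4.0 by STAR (2.6 in the submitters' processing notes, another version in the methods), and featureCounts 1.6.3 gave reads per gene. They deposited raw counts per gene, neither normalized nor pooled. Whether strand was used is not given in the sources used here. The tests here used edgeR 4.0.16 under R 4.3.3. Genes were kept by filterByExpr (minimum count 10, minimum total 15), which left 18186 to 20344 per fit, scaled by TMM and tested by glmQLFit and glmQLFTest with Benjamini-Hochberg adjustment over all genes. Fits held 10 libraries for time points, and 20 of a region for genotype and its difference in change. For region they held 20 of a genotype, blocked by day and replicate number. By the labels each block is 1 animal, but the 2 WT blocks of 100 days bear the same animal's label. With 2 libraries per condition, p-values rest on a spread shared over conditions. Levels are CPM, over exon length for CPM per kb, and correlations are of log2 CPM (prior count 2). In simulated CF distal data, a log2 change of 2 from 120 days to term was found for 68% of 100 genes. A change of 1 was found for 7% of 100 others. Only these genes were changed among 19395 there, whereas 23% of all genes were called in the data over that interval. The simulated rates therefore cannot be carried over to the data.

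The members and the gene lists were chosen with earlier results of these data known. Named genes are the 10 members, up to 4 called genes of a list with the largest change (average log2 CPM of at least 1), and the 10 genes of closest pattern. *COL1A1*, *MARCO*, *CDK2*, *CUL4A*, the uncalled turnover genes, and *CCNE2* in distal and *FBXO5* in proximal lung fall outside that rule and were named after their values were seen. Alternatives were DESeq2 1.42.0, RLE, library totals, the bias-adjusted quasi-likelihood, no filter, other limits, each library left out, thinning, summing the WT libraries of 100 days, a replicate block and 1 fit of 40 libraries. Proximal and distal libraries of the same day and replicate come from 1 animal, and their deviations correlated at -0.09 to 0.63 (median 0.23). Day 50 and sequences were not analysed here. A table that repeats CF columns was not used.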

Additional observations from a re-analysis of the deposited data

Results flagged for a closer look

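The change from 120 days to term differed between genotypes for 6 members in distal lung, where 5.1% of all genes had a lower change in CF, and 4 in proximal lung, where 1.19% had, by edgeR's test of the difference itself, at an adjusted p of 0.05 or less. In distal lung the log2 difference (change in CF minus change in WT) was -2.92 for *CDC6*, -1.79 for *MCM2*, -1.68 for *CDT1*, -1.57 for *MCM3*, -1.24 for *MCM4* and -1.19 for *MCM5*. In proximal lung it was -2.21 for *CDC6*, -2.18 for *CDT1*, -2.02 for *MCM2* and -1.26 for *MCM3*. The 2 regions come from the same animals. The proximal count fell to 0 without WT term replicate 1, without CF term replicate 2, or without either WT replicate at 120 days, and the distal count to 3 without WT replicate 1 at term or at 120 days. Calls over all genes fell as well, from 1.78% to between 0.263% and 0.845% in proximal lung and from 9.31% to 5.05% and 3.75% in distal lung.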

How the results depend on the processing

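With RLE scaling no count of members moved by over 1.5 times, and of 840 values under the alternatives for members called in the term comparisons 0 changed sign. Of 1060 values for members not called there, 56 did. Counts in both regions depended on the settings. From 120 days to term the count of 0 in WT distal lung was 1 by DESeq2, with the bias-adjusted quasi-likelihood, without the low-count filter and with a replicate block. The count of 1 in CF proximal lung was 5 by DESeq2, 7 with all 40 libraries in 1 fit, and 0 with thinned counts, library totals alone, a replicate block, an adjusted p of 0.01 or less, or the limits of the study. The 3 calls between consecutive days were 24 by DESeq2, 8 in 1 fit, 7 without the filter, and 0 with the WT libraries of 100 days summed or at either stricter limit. Before term, the 2 members differing between genotypes in proximal lung were 4 by DESeq2 or in 1 fit, 1 with WT libraries of 100 days summed, thinned counts or a replicate block, and 0 at either stricter limit. The 2 in distal lung were 5 with library totals alone, 1 with the WT libraries of 100 days summed, in 1 fit or at 0.01, and 0 at the limits of the study. The 0 calls on single days were 2 by DESeq2 and 1 in 1 fit. Thinned counts left 2 of the 4 members with a lower change in CF proximal lung. No other call count moved past 1.5 times with the replicate block.

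At an adjusted p of 0.01 or less, the members falling from 65 to 120 days in CF went from 12 to 3, those lower in CF at term in proximal lung from 6 to 2, and those with a lower change in CF from 4 to 0 (proximal) and from 6 to 3 (distal). The share of all genes at that limit was not computed. At the limits of the study, falls from 65 to 120 days numbered 7 in WT and 0 in CF, falls from 65 days to term 13 and 7, and differences over 5 time points 11 and 4. Of all genes, 1.35%, 0.58%, 0% and 0.0871% fell from 65 to 120 days (WT then CF, proximal then distal). From 65 days to term 6.56%, 5.25%, 0.0406% and 2.28% fell. Over 5 time points 10.6%, 7.48%, 0.0254% and 3.59% differed, by adjusted p alone. At those limits CF distal lung kept 1 fall at term (0.256% of all genes). CF against WT at term gave 0 lower in proximal (0.246%) and 1 in distal lung (0.682%). The lower change in CF gave 0 (0.0442%) and 1 (0.134%).

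With each library left out in turn, falls from 120 days to term numbered 0 to 2 in WT proximal and WT distal lung (2 without term replicate 1), 0 to 5 in CF proximal lung (5 without replicate 1 of 120 days, 2 without term replicate 1, and 0 without term replicate 2 or any library of 65, 80 or 100 days) and 6 to 8 in CF distal lung. Calls between consecutive days ranged from 1 to 13, with 13 without either WT distal and 9 without either WT proximal term library. Falls from 65 to 120 days ranged from 18 to 20 in WT and from 5 to 16 in CF, where the low values came without CF distal replicate 1 of 120 days (5) or replicate 1 (7) or 2 (5) of 65 days. Falls from 65 days to term ranged from 18 to 20 and from 14 to 19, and differences over 5 time points from 20 to 20 and from 13 to 16. CF against WT at term gave 2 to 7 members (proximal) and 4 to 8 (distal), and the lower change in CF gave 0 to 5 and 3 to 8. Before term, 0 to 4 members differed in proximal lung, 1 to 3 in distal lung, and 0 to 2 on single days. Differences in change before term and differences between regions stayed at 0 to 0. Shares of all genes do not stand beside every count here, and the causes of these shifts were not tested. *CDC6* had 80 to 150 counts in the CF term libraries, where its level was 0.882 to 1.46 CPM. Those libraries held 117316905 to 119451372 counts in all, more than any library before term. The planned promoter and protein comparison was not run.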
